A study of Mus musculus with 4 samples.

Results

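The tumour necrosis factor (TNF) superfamily was examined through every gene whose symbol begins with Tnfsf, the ligands, or Tnfrsf, the receptors. Members were chosen by symbol alone, after the accession of each array probe had been matched to the RefSeq gene table. This gave 31 genes (11 ligands and 20 receptors) on 39 probes, out of 32301 genes and transcripts on 41174 gene probes. No measured value entered the choice, but the family was taken up with KO against WT results of these arrays already known. The differences between genotypes below are therefore a description and no independent evidence. Of the 33 symbols with these prefixes in the RefSeq table, Tnfsf13 and the antisense RNA Tnfsf13os had no probe matched here.

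TNF family ligands are mostly trimeric membrane proteins that can be shed from the cell surface, and they bind receptors built from cysteine-rich repeats. Receptors with a cytoplasmic death domain can recruit FADD and caspase-8, whereas others bind TRAF adaptors and activate NF-kappaB, and a few are decoys that bind ligand without a full signalling tail. Most of the family is known from lymphocytes, bone and epithelia. Mouse embryonic stem cells (ESCs), the pluripotent cells derived from the blastocyst, are not a classical site of these pathways.

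The study compared 4 ESC lines, each hybridised to 1 one-colour Agilent array. The 2 wild type (WT) lines carried 15-1+/+ and 15-2+/+, and the 2 knockout (KO) lines carried 15-1CT/CT and 15-2-/-, where ECAT15-1 is Dppa4, ECAT15-2 is Dppa2 and CT is a conditional targeted allele. The KO lines thus differed from WT in genotype at both genes. All 4 lines came from blastocysts of one kind of intercross, with the pair WT 1 and KO 1 from mother 1046 and the pair WT 2 and KO 2 from mother 875. The background was a mixture of 129Sv, C57/BL6 and an unknown contribution from Cre or FLPe transgenic mice. Culture before harvest was 3 days on gelatin, in medium with 15% FCS and LIF. Each line is a separate derivation, so the p-values set a difference against the spread between 2 lines of a genotype. In limma, that spread is drawn toward a value shared by all genes tested, so a p-value does not rest on the gene's own lines alone.

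Values are log2 of the processed Cy3 signal, scaled so that the 75th percentile was equal on all arrays. A probe was called well above background by the scanner software, and between 68.5% and 70.4% of gene probes were so on each array. The lowest signal well above background lay between 3.24 and 3.58, and no gene spot was saturated. Dppa2 was 31.4-fold lower in the KO lines (12.09 and 12.03 in WT, 7.05 and 7.12 in KO), and the position of its probe relative to the deletion was not checked here. Dppa4 RNA was not lower in the KO lines (13.37 and 13.54 in WT, 13.95 and 14.07 in KO, limma adjusted p = 0.154). Of 8 pluripotency genes with a probe, 8 were well above background on all 4 arrays, Pou5f1, Sox2 and Klf4 among them. The summed level of these 8 was 18.86 and 18.83 in WT and 19.20 and 19.43 in KO lines. All 8 differences were positive (12810 of 21639 over all genes, list median 0.79), and 0 passed. At least 2-fold higher in both pairs were 2 of them, Klf4 (3.80-fold) and Esrrb (2.94-fold), against 1.56% of all genes. Some markers of other cells also moved. Of 5 endothelial markers tested, 3 differences were negative and 2 positive (median -0.04), and 0 passed. Kdr was the 1 of them at least 2-fold lower in both pairs (-1.92 and -2.04, limma adjusted p = 0.300), against 6.94% of all genes. Of 8 primitive endoderm markers tested, 4 were negative and 4 positive (median 0.20). Dab2 among them was called lower (limma adjusted p = 0.0381, and 0.102 with the mother as a block). The summed level of 12 fibroblast and feeder markers was 13.99 in WT 1, 12.64 in WT 2, 12.46 in KO 1 and 12.64 in KO 2, and 11 of the 12 were above background on all arrays. Within this list 10 of 12 differences were negative (8829 of 21639 over all genes). At least 2-fold lower in both pairs were 4 genes (6.94% over all genes). Against 1.67% of all genes called lower, Mmp2 (10.8-fold, limma adjusted p = 0.0223) and Fbn1 (7.07-fold, 0.0253) fell. Those calls were lost with the mother as a block (0.083 and 0.0837). The summed level of 9 trophoblast markers was 18.13 and 18.55 in WT and 16.17 and 15.65 in KO lines, where Krt8 and Krt18 carry most of the signal. Of these markers, 8 of 8 tested differences were negative (8829 of 21639 over all genes, list median -2.46), and Tpbpa was above background only in KO 2. At least 2-fold lower in both pairs were 7 of the 8 (6.94% over all genes). Krt8 was called lower (6.72-fold, limma adjusted p = 0.0497, and 0.119 with the mother as a block). Hand1 was 26.9-fold lower without passing (limma adjusted p = 0.0505). In bulk RNA, fewer cells of a type and less RNA per cell cannot be told apart.

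Receptors were detected more widely than ligands, and about as widely as genes in general. Among all genes and transcripts with unflagged values, 19864 of 32123 had a probe above background on all 4 arrays. Of 20 receptors, 12 were well above background on all 4 arrays (60%) and 5 on none, whereas of 11 ligands 3 were above background on all 4 arrays (27.3%) and 6 on none. Another 2 receptors and 1 ligand were above background on a single array, Tnfrsf11b and Tnfsf14 in WT 1 and Tnfrsf9 in KO 2. A total of 17 members passed the filter of both arrays of at least 1 genotype and were tested, 13 receptors and 4 ligands. The 14 others lay at or near background and are described by detection only. They were the receptors Tnfrsf8, Tnfrsf9, Tnfrsf11b, Tnfrsf13b, Tnfrsf14, Tnfrsf17 and Tnfrsf26, and the ligands Tnfsf4, Tnfsf8, Tnfsf10, Tnfsf12, Tnfsf14, Tnfsf15 and Tnfsf18.

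**Figure D1:**
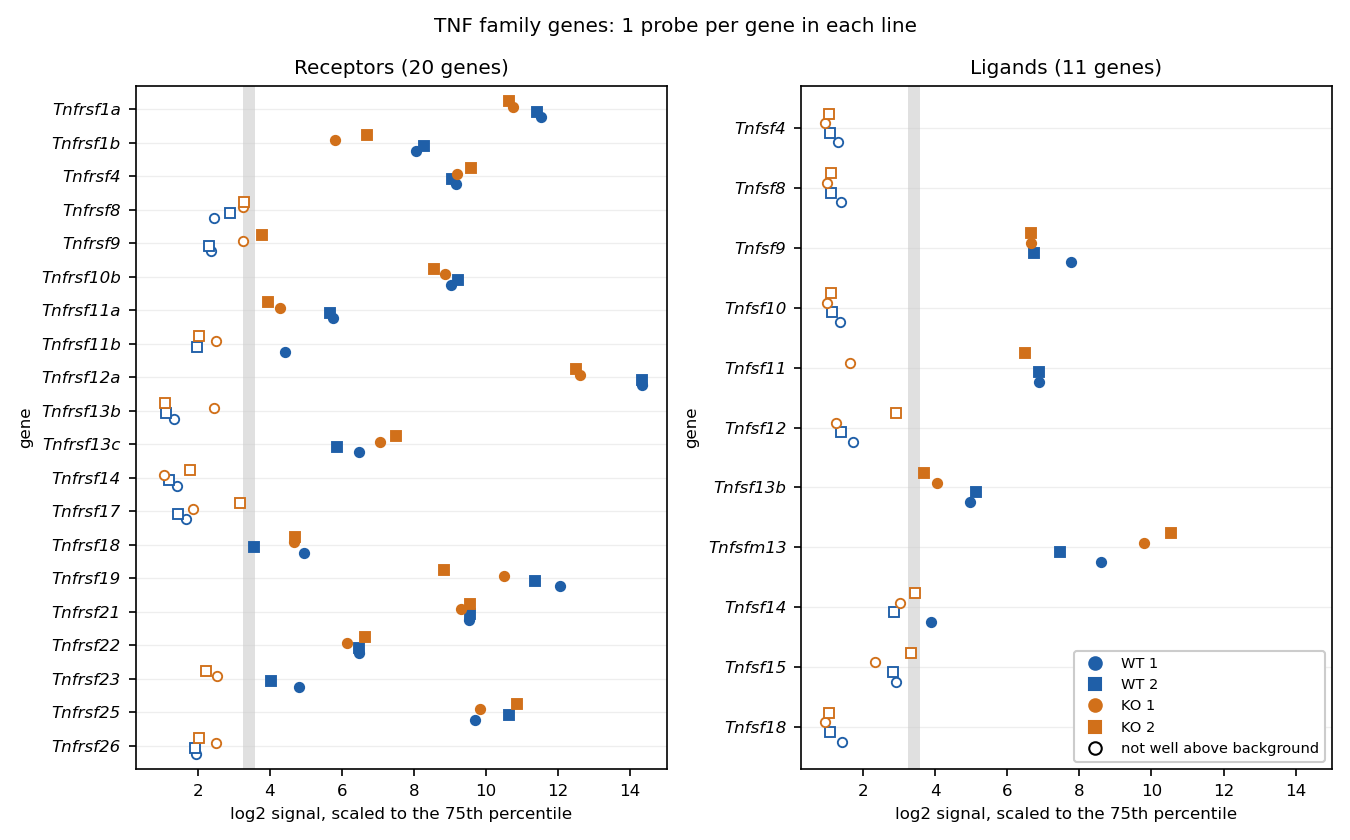
Log2 signal of 20 receptors (left) and 11 ligands (right) in WT 1, WT 2, KO 1 and KO 2, 1 probe per gene, with open symbols where the probe was not well above background and a grey band at 3.24 to 3.58, the lowest signal above background on the arrays. In the KO lines (orange) Tnfrsf12a sits at 12.60 and 12.48 against 14.33 and 14.34 in WT, while Tnfsfm13 sits to the right of both WT lines; levels of different probes are not comparable.

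Ligand and receptor were often not detected together. For Ox40 (Tnfrsf4), Gitr (Tnfrsf18), the death receptor Dr3 (Tnfrsf25), the TRAIL receptor (Tnfrsf10b) and the TWEAK receptor Fn14 (Tnfrsf12a) the receptor was above background on all 4 arrays, and the cognate ligand, Tnfsf4, Tnfsf18, Tnfsf15, Tnfsf10 or Tnfsf12, on none. The reverse held for 4-1BB ligand (Tnfsf9), above background in all 4 lines, whose receptor Tnfrsf9 was so only in KO 2. Both partners were above background on at least 3 arrays for RANK ligand with RANK (Tnfsf11 and Tnfrsf11a), for BAFF with its receptor (Tnfsf13b and Tnfrsf13c), and for lymphotoxin alpha (Lta) with Tnfrsf1a and Tnfrsf1b. Tnf was above background in the 2 WT lines alone, and both of its receptors were so in all 4 lines. The other BAFF receptors, TACI (Tnfrsf13b) and BCMA (Tnfrsf17), were on no array, and neither were both partners of the CD30 pair (Tnfsf8 and Tnfrsf8). A dim probe bounds the RNA only through that probe. Tnfsfm13, a RefSeq gene that overlaps the TWEAK gene Tnfsf12, was above background on all 4 arrays. The dim Tnfsf12 probe therefore does not show that RNA for TWEAK was absent.

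Among the receptors, 1 of 13 tested members passed the test in the KO lines and 0 of 4 ligands did. The background over all 21639 genes and transcripts tested was 361 lower (1.67%) and 38 higher (0.176%), or 1.84% in either direction, by limma at a Benjamini-Hochberg adjusted p under 0.05. The receptor was Tnfrsf12a, the receptor for TWEAK, which lacks a death domain and signals through TRAF proteins. Its log2 signal was 14.33 in WT 1, 14.34 in WT 2, 12.60 in KO 1 and 12.48 in KO 2. The WT lines lay within 0.01 of each other, and both KO lines were lower in their own mother's pair. Tnfrsf12a fell 3.47-fold (log2 difference -1.79, SE 0.13, n = 2 per genotype, limma adjusted p = 0.0281). With the mother as a replicate block the limma adjusted p was 0.0909, and it was 0.201 without WT replicate 1, 0.215 without WT replicate 2, 0.0856 without KO replicate 2 and 0.051 over genes above background on all arrays. The difference itself stayed between -1.92 and -1.63 over 13 alternatives.

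A further 3 receptors, Tnfrsf19, Tnfrsf1b and Tnfrsf11a, were above background on all arrays and at least 2-fold lower in the pair of each mother without passing the test. Together with Tnfrsf12a these were 4 of 17 members, against 6.29% of all genes tested, with values not above background raised to the lowest signal well above background on their array. By the values as measured the count was 5 of 17 against 6.94%, with Tnfrsf23 the additional member. These counts come from the contrast for which the family was taken up. Tnfrsf19 (Troy), an orphan receptor expressed in epithelial and neural stem cells, was at 12.05 in WT 1, 11.37 in WT 2, 10.50 in KO 1 and 8.82 in KO 2. The genotypes did not overlap, and the KO lines stood 1.67 apart. The log2 difference was -2.05 (SE 0.67, n = 2 per genotype, limma adjusted p = 0.200), and -1.21 without KO replicate 2.

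Tnfrsf1b, the TNF receptor TNFR2, which lacks a death domain, was at 8.06 and 8.27 in WT and at 5.82 and 6.70 in KO lines by its brightest probe, read from 10 spots. That difference was -1.91 (SE 0.35, n = 2 per genotype, limma adjusted p = 0.103). Its second probe disagreed, with 7.13 and 7.18 in WT and 7.11 and 7.29 in KO lines, a difference of 0.05. Both probes were above background on all arrays, so a genotype difference of Tnfrsf1b holds for 1 of its 2 probes. Tnfrsf1a, the TNF receptor TNFR1 with a death domain, was at 11.52 and 11.41 in WT and at 10.74 and 10.63 in KO lines, again over 10 spots. Both pairs gave -0.78, a difference of 1.72-fold (SE 0.13 on the log2 scale, n = 2 per genotype, limma adjusted p = 0.0942).

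Tnfrsf11a (RANK), the receptor of osteoclast differentiation, was at 5.75 and 5.67 in WT and at 4.27 and 3.94 in KO lines. The difference of -1.61 (SE 0.17, n = 2 per genotype) just missed the threshold (limma adjusted p = 0.052). It was -0.64 under normexp background correction, and its second probe was above background only in WT 2. Tnfrsf23, a mouse decoy receptor for TRAIL, was at 4.81 and 4.02 in WT and not well above background in either KO line. It was at least 2.20-fold lower there (limma adjusted p = 0.0903 over 2 lines per genotype), and this p rests on KO values that are background signal. Within the pairs the bounds were at least 2.97-fold for mother 1046 and at least 1.63-fold for mother 875. Its neighbours Tnfrsf22, a second TRAIL decoy, and Tnfrsf26 lie next to it on chromosome 7 with no coding gene between them. Tnfrsf22 overlapped between genotypes, at 6.48 and 6.47 in WT and 6.13 and 6.65 in KO lines, and Tnfrsf26 was on no array above background.

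Of the other tested receptors, Tnfrsf13c (BAFF receptor) was the one with the largest positive difference. It was at 6.46 and 5.87 in WT and at 7.05 and 7.50 in KO lines, which gives 1.11 on the log2 scale (SE 0.30, n = 2 per genotype, limma adjusted p = 0.160), and 0.60 under normexp. The death receptor genes Tnfrsf10b (DR5) and Tnfrsf21 (DR6) and the receptors Tnfrsf4, Tnfrsf18, Tnfrsf22 and Tnfrsf25 had differences between -0.42 and 0.42, and none passed (limma adjusted p from 0.251 to 0.843). All 3 probes of Tnfrsf10b gave negative differences, from -0.51 to -0.37, and both probes of Tnfrsf21 gave -0.10 and -0.08. By its brighter probe Tnfrsf21 was at 9.52 and 9.54 in WT and at 9.31 and 9.55 in KO lines, which overlapped. For Tnfrsf21, Tnfrsf22, Tnfrsf25 and Tnfrsf18 the sign turned under at least 1 alternative, so no direction is given for them.

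**Figure D2:**
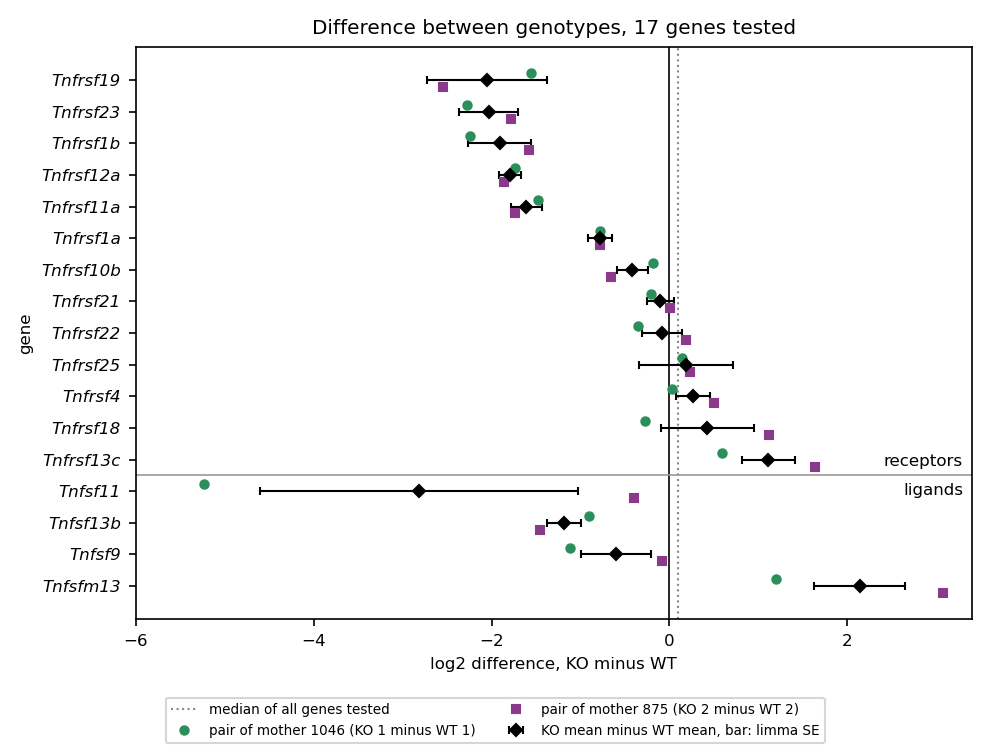
Log2 difference KO minus WT of the 17 members tested, with black diamonds for the difference of means and bars for its limma standard error, green circles for the pair of mother 1046 and purple squares for that of mother 875; the dotted line is the median of all genes tested, 0.10. Tnfrsf12a and Tnfrsf1a show near-equal pairs, whereas the pairs of Tnfsf11 lie at -5.23, measured against background signal in KO 1, and at -0.39.

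Among the ligands, Tnfsfm13 was higher and the other tested genes were lower, and none passed the test. Tnfsfm13 is the RefSeq name of the transcript that joins Tnfsf12 (TWEAK) to Tnfsf13 (APRIL), and it overlaps both genes on chromosome 11. It was at 8.59 in WT 1, 7.46 in WT 2, 9.79 in KO 1 and 10.54 in KO 2. Both KO lines lay above both WT lines, and the excess was 1.20 for mother 1046 and 3.08 for mother 875. The mean difference was 2.14 (SE 0.51, n = 2 per genotype, limma adjusted p = 0.141), or 4.40-fold. It was the 1 member at least 2-fold higher in both pairs, against 1.56% of all genes tested (1.24% with dim values at the floor). The Tnfsf12 probe was not well above background in any line. Whether the Tnfsfm13 probe reads the joined transcript or Tnfsf13 cannot be told apart, as no Tnfsf13 probe was matched here.

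Tnfsf11 (RANK ligand) set the KO lines apart. It was at 6.87 in WT 1 and 6.88 in WT 2, at 6.49 in KO 2, and at 1.64 in KO 1, where it was not well above background. A second probe gave 6.49 and 6.33 in WT, 6.05 in KO 2 and 2.34 in KO 1, again not above background there. The low value therefore belonged to 1 KO line and to both probes. KO 1 was at least 12.3-fold below WT 1, its pair, while KO 2 was 0.39 below WT 2 on the log2 scale. The fit gave -2.81 (SE 1.79, n = 2 per genotype, limma adjusted p = 0.390) from the background signal of KO 1, and -2.01 is the mean difference with KO 1 at its detection floor of 3.24. Without KO replicate 1 it was -0.39. KO 2 was at least 9.5-fold above KO 1 by the first probe and at least 7.01-fold by the second. Between the KO lines 3 of 17 members were at least 2-fold apart, Tnfsf11, Tnfrsf19 and Tnfrsf25, against 9.32% of all genes tested. The receptor gene Tnfrsf11a was lower in both KO lines, and the soluble decoy for RANK ligand, osteoprotegerin (Tnfrsf11b), was above background only in WT 1, at 4.41.

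Tnfsf13b (BAFF), a B cell survival factor, was at 4.96 and 5.13 in WT and at 4.05 and 3.68 in KO lines, close to the detection limit. Its difference was -1.18 (SE 0.19, n = 2 per genotype, limma adjusted p = 0.0903), and -0.42 under normexp. Tnfsf9 (4-1BB ligand) was at 7.78 in WT 1 and between 6.66 and 6.75 in the 3 other lines. Its difference of -0.60 (SE 0.40, n = 2 per genotype, limma adjusted p = 0.401) was -0.09 without WT replicate 1 and -1.12 without WT replicate 2. WT 1 also stood at least 2-fold above WT 2 for Tnfsfm13 and Tnfrsf18, which makes 3 of 17 members against 4.99% of all genes tested. WT 1 is the line with the highest summed level of fibroblast markers, and the part of this in the WT differences was not tested.

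**Figure D3:**
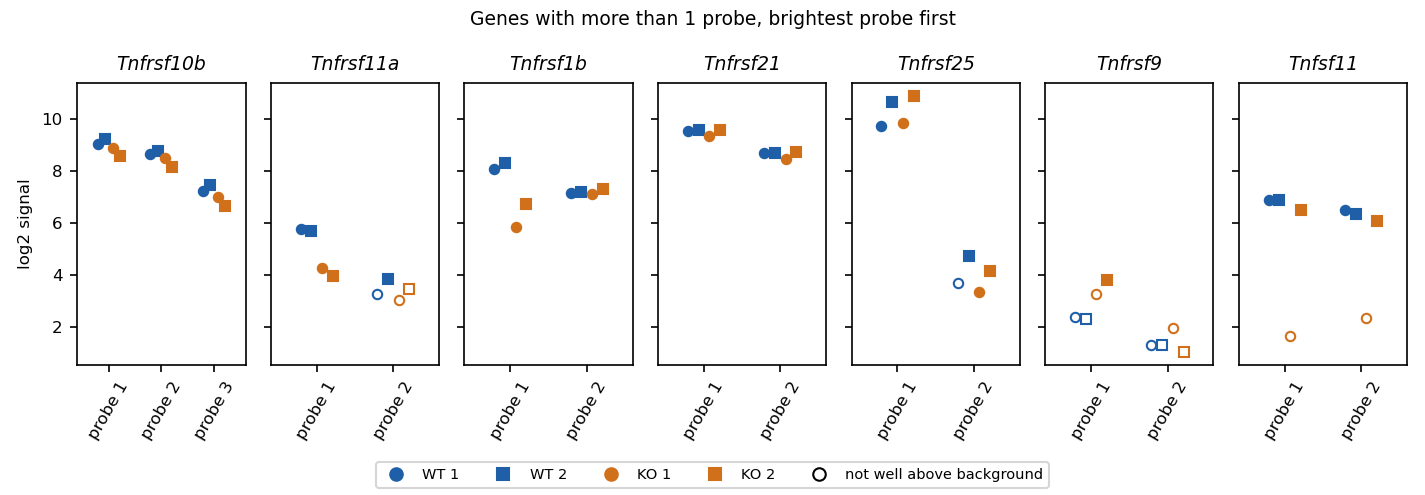
Log2 signal in WT 1, WT 2, KO 1 and KO 2 for the 7 members with more than 1 probe, the brightest probe first, with open symbols where the probe was not well above background. Both probes of Tnfsf11 are low in KO 1 (1.64 and 2.34), whereas the KO lines are low for the first probe of Tnfrsf1b (5.82 and 6.70) and not for the second (7.11 and 7.29).

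Side by side, the median log2 difference was -0.89 over the 4 ligands tested and -0.42 over the 13 receptors tested, against 0.10 over all genes tested. Without KO replicate 1 the ligand median was -0.49 and the receptor median -0.57, so their order turned. In the pair of mother 875 they were -0.24 and -0.66, and in that of mother 1046 -1.01 and -0.35. Normexp gave -0.47 and -0.39. Tnfsf11 and Tnfrsf23 passed the filter only through the WT lines. Over members above background on all 4 arrays the ligand median was -0.60 and the receptor median -0.26. In number, 3 of 4 ligands and 9 of 13 receptors had a negative difference, against 8829 of 21639 genes. The genotypes did not overlap for 10 members that were lower, against 24.5% of all genes tested, and for 3 that were higher, against 37.7%. With the dim members included the medians were -0.19 for 11 ligands and 0.01 for 20 receptors. The 4 ligands span -2.81 to 2.14, so their median summarises few and unlike values, and no test set ligands against receptors.

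Between the mothers, Tnfrsf25 (DR3), a death domain receptor, gave the clearest contrast of the family. It was at 9.69 and 9.83 in the lines of mother 1046 and at 10.64 and 10.87 in those of mother 875, with no overlap. The log2 difference between mothers was 0.99 (SE 0.13, n = 2 per mother), and it did not pass over all genes (limma adjusted p = 0.665, unadjusted 0.00649). Over all genes the mother contrast called 0 of 21639 (0%), with limma as before. At least 2-fold the same way in both genotypes were 0 of 17 members, against 1.15% of all genes tested. Its second, dim probe had the same order of the mothers within each genotype. This comparison was added after the values had been seen.

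Promoters are shown for the 4 members with the largest measured differences among those at least 2-fold apart in both pairs, and are compared by their content of CpG, the dinucleotide at which DNA is methylated. Tnfsf11, 2-fold apart in 1 pair only, is not among them (4 CpG), and neither is Tnfrsf11a (31 CpG), although the bound for Tnfrsf23 is smaller than the 3.05-fold difference of Tnfrsf11a. They are 250 bases before the annotated start, 5′ to 3′ on the gene's strand, from RefSeq on GRCm38.p6, with CpG in capitals. Tnfrsf12a lies at chr17:23677450-23677699, minus strand, Tnfrsf1b at chr4:145246871-145247120, minus strand, Tnfrsf19 at chr14:61046856-61047105, minus strand, Tnfrsf23 at chr7:143685876-143686125, minus strand, and Tnfsfm13 at chr11:69696099-69696348, minus strand. Tnfrsf12a is shown in addition, as the member that passed the test.
Tnfrsf12a: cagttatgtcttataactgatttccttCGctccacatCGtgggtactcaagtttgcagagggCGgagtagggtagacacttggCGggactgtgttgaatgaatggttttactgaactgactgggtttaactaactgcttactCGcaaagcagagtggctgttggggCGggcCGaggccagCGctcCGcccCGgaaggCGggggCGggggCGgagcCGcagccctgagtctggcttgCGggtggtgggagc
Tnfrsf1b: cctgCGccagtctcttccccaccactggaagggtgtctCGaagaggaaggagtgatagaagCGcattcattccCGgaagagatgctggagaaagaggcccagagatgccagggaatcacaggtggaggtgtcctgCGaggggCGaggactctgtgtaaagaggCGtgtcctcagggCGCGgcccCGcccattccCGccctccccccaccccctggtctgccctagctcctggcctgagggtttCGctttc
Tnfrsf19: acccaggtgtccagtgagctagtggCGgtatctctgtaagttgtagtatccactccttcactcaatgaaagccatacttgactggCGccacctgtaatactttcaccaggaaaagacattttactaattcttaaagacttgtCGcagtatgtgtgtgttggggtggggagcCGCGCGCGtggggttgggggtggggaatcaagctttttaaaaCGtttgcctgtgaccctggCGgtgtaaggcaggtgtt
Tnfrsf23: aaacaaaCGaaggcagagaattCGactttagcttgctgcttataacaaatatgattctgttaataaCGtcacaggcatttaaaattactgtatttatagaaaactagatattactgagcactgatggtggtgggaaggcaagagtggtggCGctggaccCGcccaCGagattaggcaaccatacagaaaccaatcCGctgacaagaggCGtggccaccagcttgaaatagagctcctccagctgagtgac
Tnfsfm13: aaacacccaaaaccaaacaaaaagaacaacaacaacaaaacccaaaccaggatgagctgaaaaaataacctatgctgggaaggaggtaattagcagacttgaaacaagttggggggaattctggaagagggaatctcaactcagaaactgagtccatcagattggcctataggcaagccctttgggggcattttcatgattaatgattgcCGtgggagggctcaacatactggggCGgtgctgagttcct

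These windows hold 15 CpG in Tnfrsf12a, 12 in Tnfrsf1b, 9 in Tnfrsf19 (8 at its second start, which is not shown), 8 in Tnfrsf23 and 2 in Tnfsfm13. The median over 32851 such windows is 6. Of the members, 24 had a window, 7 had none in the table, and where a gene had several the highest count was taken. At least 10 CpG were found in 6 of 12 members above background on all 4 arrays and in 1 of 8 members above background on none, against 37.8% of all windows. The sequence TATAAA, searched on both strands, occurred in Tnfrsf23 alone among the 5 shown, 158 to 153 bases before the start on the opposite strand, and 12.4% of all windows hold it. The NF-kappaB motif occurred in none of the 5 and in 7.25% of all windows. In the family it was found upstream of Tnfrsf25, Tnfrsf8 and Tnfrsf9. These are matches of letters and not sites.

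Family members with other names were read from lists of pathway genes. Of 7 other ligands, 4 were tested, 1 fell, 0 rose and 3 did not pass. The median difference was -2.60 where dim values stand at the detection floor (-3.13 as measured, against background signal for Tnf and for Lta in KO 1). Tnf, Lta and Eda passed the filter only through the WT lines, where they were higher. The filter thus favoured a negative median, which is no support for a fall of the list. The member that fell was Lta (lymphotoxin alpha), from 6.42 and 6.59 in WT to 3.09 and 3.70 in KO lines (log2 difference -3.10, SE 0.26, n = 2 per genotype, limma adjusted p = 0.0371), with 1 of 2 KO arrays above background. With KO 1 at the detection floor the difference was -3.03, and under normexp it was -1.13. The call was lost in 7 of 12 alternatives, with the mother as a replicate block among them (limma adjusted p = 0.0837), and the range of adjusted p over them was 0.0344 to 0.220. Tnf itself was at 5.66 and 5.25 in WT and not well above background in either KO line, at least 4.51-fold lower (limma adjusted p = 0.0760 over 2 lines per genotype). That p too rests on background signal in both KO lines. Ltb (lymphotoxin beta) was at 13.92 and 13.33 in WT and at 10.88 and 8.69 in KO lines, a difference of -3.84 (SE 0.84, n = 2 per genotype, limma adjusted p = 0.127). These 3 genes stand next to each other on chromosome 17. For all 3 the KO lines lay below both WT lines, as they did for 24.5% of all genes tested.

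Of 6 other receptors tested, 0 fell, 0 rose and 6 did not pass, and 5 differences were negative (median -1.06). Fas, the death receptor of Fas ligand, was at 9.71 and 8.85 in WT and at 7.01 and 6.44 in KO lines (log2 difference -2.55, SE 0.40, n = 2 per genotype, limma adjusted p = 0.0855). Cd40 had a difference of -1.75 and Relt of -0.96. Ngfr, the p75 neurotrophin receptor, went the other way, from 11.24 and 11.86 in WT to 13.21 and 12.67 in KO lines (limma adjusted p = 0.137 over 2 lines per genotype). Fas ligand (Fasl) and Cd40 ligand (Cd40lg) were not well above background in any line.

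Behind the receptors, the medians of the signalling lists lay near 0. Of 28 tested adaptors and proximal signalling genes 0 passed in either direction (median -0.15), while Traip, a TRAF-interacting protein gene, had a difference of -1.98 (limma adjusted p = 0.239). The smallest p was that of Tnfaip3, the A20 inhibitor of NF-kappaB (difference -1.71, limma adjusted p = 0.116). Next by p came Ripk3, Rnf31 and Birc2, which were higher in KO lines, with differences of 0.77, 0.49 and 0.53. In this list 19 differences were negative and 9 positive. Of 18 genes of death receptor apoptosis 0 passed (median -0.08), with 10 differences negative and 8 positive. Daxx had the smallest p and was higher in KO lines (difference 0.67, limma adjusted p = 0.114). Mcl1 was at 0.43, and Bcl2, an inhibitor of apoptosis, at -2.27. Casp8, the caspase recruited by death receptors, was at 9.24 and 10.06 in WT and at 7.38 and 8.55 in KO lines, while Fadd, its adaptor, was at 9.70 and 9.65 in WT and 9.74 and 9.51 in KO lines. Of 14 NF-kappaB subunits, inhibitors and kinases 1 fell, 0 rose and 13 did not pass (median -0.05). The one that fell was Ikbke, an IkappaB kinase of innate immunity, from 6.31 and 6.12 in WT to 4.13 and 4.45 in KO lines (log2 difference -1.92, SE 0.18, n = 2 per genotype, limma adjusted p = 0.0425). This call was lost in 12 of 13 alternatives, with the mother as a replicate block among them (limma adjusted p = 0.109), over which the adjusted p ranged from 0.0408 to 0.228. Under normexp the difference was -0.81. Of the 14 differences in the list with Ikbke, 8 were negative and 6 positive, with Nfkbiz at -0.82, Map3k14 at -0.71 and Bcl3 at 0.74.

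Of 20 NF-kappaB target genes tested 0 passed (median -0.36), with 14 negative (8829 of 21639 over all genes) and 6 at least 2-fold lower in both pairs (6.94% over all genes). The chemokine gene Ccl20 came closest, from 8.10 and 8.83 in WT to 5.82 and 5.70 in KO lines (limma adjusted p = 0.0536 over 2 lines per genotype), and Cxcl10, Mmp9 and Csf1 had differences of -1.63, -2.54 and -2.43. Nfkbia and Birc3, targets of the canonical pathway, had differences of -0.18 and -0.28. Of 5 sheddases and inhibitors 0 passed (median -0.87). Adam17, the TNF sheddase, differed by 0.16, and the proprotein convertase gene Furin by -1.22. Immune cells, the classical source of these ligands, were read from 10 marker genes, 4 of which were above background on no array, among them Itgam and the macrophage gene Adgre1. Ptprc, the pan-leukocyte gene, was at 4.46 and 5.03 in WT and 4.26 and 3.33 in KO lines, and the summed level of the 10 was 8.64 and 8.75 in WT and 8.62 and 8.11 in KO lines.

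**Figure D4:**
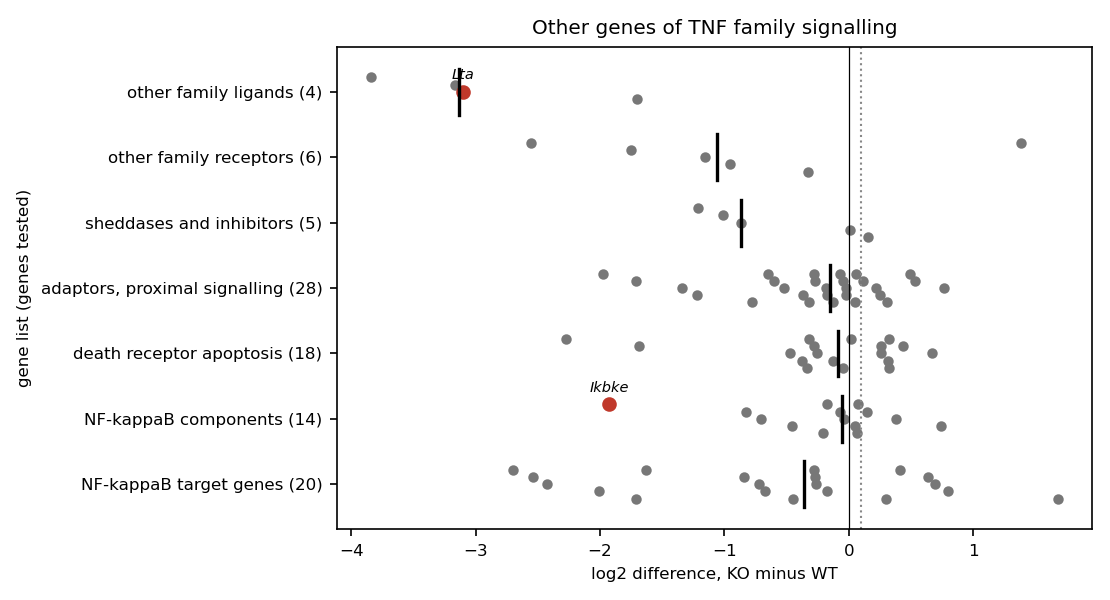
Log2 difference KO minus WT of each tested gene (points) in 7 lists of TNF pathway genes, with red points where limma's adjusted p was under 0.05, black bars at each list's median and a dotted line at 0.10, the median of all genes tested. Lta (-3.10) and Ikbke (-1.92) are the points that passed, and both calls are lost with the mother as a block. The medians of other family ligands (-3.13 as measured) and receptors (-1.06) lie left of the dotted line. Of these ligands, Tnf, Lta and Eda passed the filter only through the WT lines, where they were higher.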

How the data were processed

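The authors scanned 4 one-colour arrays, and per the file headers Feature Extraction (version 10.7.3.1) turned each spot into a processed intensity, background-subtracted and detrended within the array. The deposited series table holds log2 values, a scale read from the values: its columns correlated at 0.999902 to 0.999988 with log2 of the arrays' processed signal. The array annotation refers to mm9, and symbols come from RefSeq on GRCm38.p6.

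From the intensity, log2 values were scaled to the 75th percentile of all gene spots on an array and put back on the mean percentile. Control spots and flagged outlier spots were dropped, and the spots of a probe averaged. Of 41174 probes, 26690 matched 1 symbol and 14484 none. Of all probes, 233 had no unflagged spot on at least 1 array and were left out. Probes well above background on both arrays of a genotype were kept, and the brightest stood for its gene. Limma 3.58.1 in R 4.3.3 (lmFit, eBayes) compared KO with WT over 21639 genes, with Benjamini-Hochberg adjustment at 0.05. The fit was tested on simulated data. A bound divides the detected genotype's mean by a floor: on each array of the other genotype, its lowest signal well above background, or the probe's value if that is higher. Counts and medians with dim values at this floor, and the alternatives for Lta, Ikbke, Mmp2, Fbn1 and Krt8, were added after the data were seen.

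Equal replicate numbers mark a shared mother, per the labels. The deviations of lines that share a mother from their genotype means correlated at 0.189. Every array was on 1 slide, read in 1 scan. Members and lists were chosen with earlier results of these data known. By rule, values per line are given for members that passed, were at least 2-fold apart the same way in both pairs or had one of the 5 highest mean levels, and up to 4 genes with the smallest p are named from each list. Promoters are shown for the 4 such members with the largest differences. Other members given per line, further list genes such as Fadd, Traip, Nfkbia, Birc3 and Adam17, and the Tnfrsf12a promoter were chosen after their values were seen.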

Additional observations from a re-analysis of the deposited data

Results flagged for a closer look

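In 3 members the pairs of the 2 mothers differed in opposite directions. The difference KO minus WT in the pair of mother 875 exceeded that of mother 1046 by 1.40 on the log2 scale for Tnfrsf18 (-0.28 and 1.12), by 0.53 for Tnfrsf22 (-0.35 and 0.18) and by 0.22 for Tnfrsf21 (-0.21 and 0.01). Each pair holds 1 line per genotype, so these differences between mothers were not tested.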

How the results depend on the processing

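With the mother as a replicate block limma called 0 genes lower and 0 higher over all genes (2736 and 2278 at an unadjusted p under 0.05, against 361 and 38 called without the block), and 0 members lower; Tnfrsf12a was then at an adjusted p of 0.0909. Over genes above background on all 4 arrays there were 0 calls lower and 0 higher by limma (2184 and 2444 unadjusted) and 0 members lower. Leaving out each replicate in turn gave 0 to 679 genes lower, 0 to 64 higher and 0 to 1 members lower, with 0 called except without KO replicate 1 (unadjusted 1720 and 1180 without WT replicate 1, 1772 and 913 without WT replicate 2, 2468 and 1449 without KO replicate 2). The count of genes called higher was 58 under median centring, 69 under normexp, 10 with no filter on dim probes and 80 with an intensity trend and robust prior. With no filter the ligand median was -0.19 and the receptor median 0.010, as 14 dim members then enter. Tnfrsf12a was lost as a call in 5 of its 13 alternatives and reversed in none.

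Directions turned for Tnfrsf22 under quantile scaling (0.091), median centring (0.084) and the deposited values (0.082), with -0.34 to 0.18 on leaving out each replicate, and for Tnfrsf21 under median centring (0.066), with -0.22 to 0.019 on leaving out each replicate. They turned for Tnfrsf18 under normexp (-0.084), with -0.27 to 1.12 on leaving out each replicate, for Tnfrsf25 by its other probe (-0.45), with -0.33 to 0.70 on leaving out each replicate, and for Tnfrsf1b by its other probe (0.045). The cause was not tested. All the other 208 of 225 values of single members kept their direction and their side of the threshold. Among called genes of the lists other than Dab2, limma calls were lost in 7 of 12 alternatives for Lta and 12 of 13 for Ikbke. They were lost in 5 of 13 for Mmp2, 5 of 13 for Fbn1 and 10 of 12 for Krt8, and no direction reversed. For Dab2 only the fit with the mother as a block was read. The median of all genes tested was 0.10, and 0.26 under median centring. The 2 lines per genotype limit the precision, and signals near 3.24 to 3.58 are set by background.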

Other observations

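Around Tnfsf11 the KO lines were alike for most neighbouring genes. Of the 5 coding genes on each side on chromosome 14, 8 had a probe above background on all 4 arrays. The amount by which KO 2 exceeded KO 1 lay between -1.38 and 0.27 for their probes without Rgcc, which lies 5 genes away. The adjacent Akap11, a protein kinase A anchoring gene, was at 11.16 in KO 1 and 11.18 in KO 2, while Tnfsf11 was not above background in KO 1 and at 6.49 in KO 2. Rgcc, a cell cycle regulator gene, went the opposite way, with 12.07 in KO 1 and 6.77 in KO 2 against 11.43 and 10.34 in WT 1 and WT 2. These genes were read after the Tnfsf11 values had been seen, and no test was made.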
